A study of Homo sapiens with 6 samples.

Results

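The respiratory complexes II, III, IV and V of mitochondria are built mostly from proteins encoded in the nucleus, and the mRNAs of 39 such subunits are described here. The 39 genes were taken from a list of symbols, by a rule that names no measured value although earlier results of these data were known, and all 39 were found among the 60605 genes of the count table. They comprise 4 genes of complex II, 9 of complex III, 10 of complex IV, 15 of complex V and the electron carrier cytochrome c, encoded by CYCS. The cells were HuCCT-1, an established line from a human bile duct cancer (cholangiocarcinoma). One group of 3 libraries came from cells given 6 nM of JNJ-64619178, which inhibits PRMT5, an enzyme that methylates arginines, and the other 3 came from cells given the same volume of its solvent DMSO, both over 4 days in DMEM-F12 with serum and antibiotics. No source says whether the replicates were separate cultures, so the p-values weigh differences against a spread that may be technical. All libraries came from 1 line at 1 time and, for the inhibitor, 1 dose.

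Complex II, succinate dehydrogenase, passes electrons from succinate to ubiquinone and is also an enzyme of the citric acid cycle. Complex III hands these electrons to cytochrome c, and complex IV, cytochrome c oxidase, transfers them to oxygen. Both pump protons across the inner membrane, and complex V, the ATP synthase, uses the returning protons to make ATP. Complexes III, IV and V also contain subunits encoded in mitochondrial DNA, so their assembly needs products of both genomes, while complex II is entirely nuclear.

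Library depth was 28133746 to 30691914 counts under DMSO and 23931991 to 28224911 under the inhibitor, and the members took 0.224% to 0.256% of each library's counts. Single members had 236 to 9730 counts per library, so all 39 passed the filter on low counts. The 7 markers of biliary epithelium (such as KRT7 and EPCAM) summed to between 5321 and 5593 CPM under DMSO (read counts scaled to a common library size by TMM). Under the inhibitor they summed to between 4244 and 4525 CPM. KRT7 weighed most in these sums, at 3559 to 3756 CPM under DMSO and 2732 to 2926 CPM under the inhibitor. Of the 7, 4 (57.1%) were called lower and 1 (14.3%) higher, beside 17.1% and 20% of all genes tested. The other marker lists stood near 0. The 4 hepatocyte markers summed to at most 0.366 CPM, with TTR at 0 counts in all libraries. The 4 leukocyte markers summed to 2.03 to 2.89 CPM under DMSO and 3.25 to 3.602 CPM under the inhibitor, nearly all of it CD14, with PTPRC at 0 or 1 counts in each library. The 4 fibroblast and 3 endothelial markers each summed to at most 1.63 CPM. The part of these markers in the results below was not tested.

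The inhibitor was accompanied by small changes in these genes, all of the called ones decreases in complexes IV and V and in both directions within complex III. ATP5F1B, the catalytic beta subunit of ATP synthase, and UQCRC1, a core protein of complex III, were lower. The small complex III subunits UQCRQ and UQCR10 were higher, with overlapping groups in UQCR10, and both of these calls were lost without DMSO replicate 2. Of the 39 genes, 3 were called higher and 11 lower by edgeR's quasi-likelihood test at a Benjamini-Hochberg adjusted p under 0.05, with p adjusted over all 17371 genes tested. Together these 14 were 35.9% of the members, beside 37.1% of all genes tested, so the members were called about as often as genes in general. By direction, 28.2% of the members were called lower beside 17.1% of all genes, and 7.69% were called higher beside 20% of all genes. Among the 8989 genes whose levels lay in the members' range, 48.2% were called, 26.5% higher and 21.8% lower. In bulk RNA, fewer cells with a transcript and less of it per cell cannot be told apart. The groups did not overlap in 18 members, or 46.2%, beside 47% of all genes. Of these 18, the inhibitor libraries were the higher ones in 5 (24.7% of all genes) and the lower ones in 13 (22.2% of all genes). The median log2 fold change was -0.04 over the members, with 26 negative and 13 positive, and 0.001 over all genes.

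The balance of higher and lower calls depended on single libraries and on the scaling. Without inhibitor replicate 1, 6 members were higher and 10 lower, and their median was 0.0007. Without inhibitor replicate 2, 1 was higher and 16 lower. Without inhibitor replicate 3 the counts were 1 and 9, without DMSO replicate 1 they were 1 and 10, and without DMSO replicate 2 they were 0 and 10, with 3 higher at an unadjusted p under 0.05 by edgeR. With upper-quartile scaling 1 member was higher and 15 were lower, but there the share of higher calls among all called genes also went from 53.9% to 40.6%. Even so, 9 of the 14 calls, all of them decreases, held in each of 14 alternatives (those listed with the methods, other than a test against a fold of 1.2). These were UQCRC1, COX5A, COX6B1, ATP5F1B, ATP5F1D, ATP5PD, ATP5MC1, ATP5MC3 and ATP5ME.

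The members moved less than many other genes. The largest change, that of ATP5PD, was 1.24-fold, and 34.4% of all genes tested lay beyond it in either direction. Over the 14 called members the median size of the log2 fold change was 0.23, against 0.37 over all called genes. A test against a fold of 1.2 in either direction (edgeR's glmTreat) called 0 of the 39 members, and 0 had an unadjusted p under 0.05 there. The standard error of a member's log2 fold change was 0.04 to 0.10, with a median of 0.06, against a median of 0.09 over all genes. Over the 25 members that were not called, the 95% confidence intervals reached from a 1.25-fold decrease to a 1.30-fold increase.

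**Figure D1:**
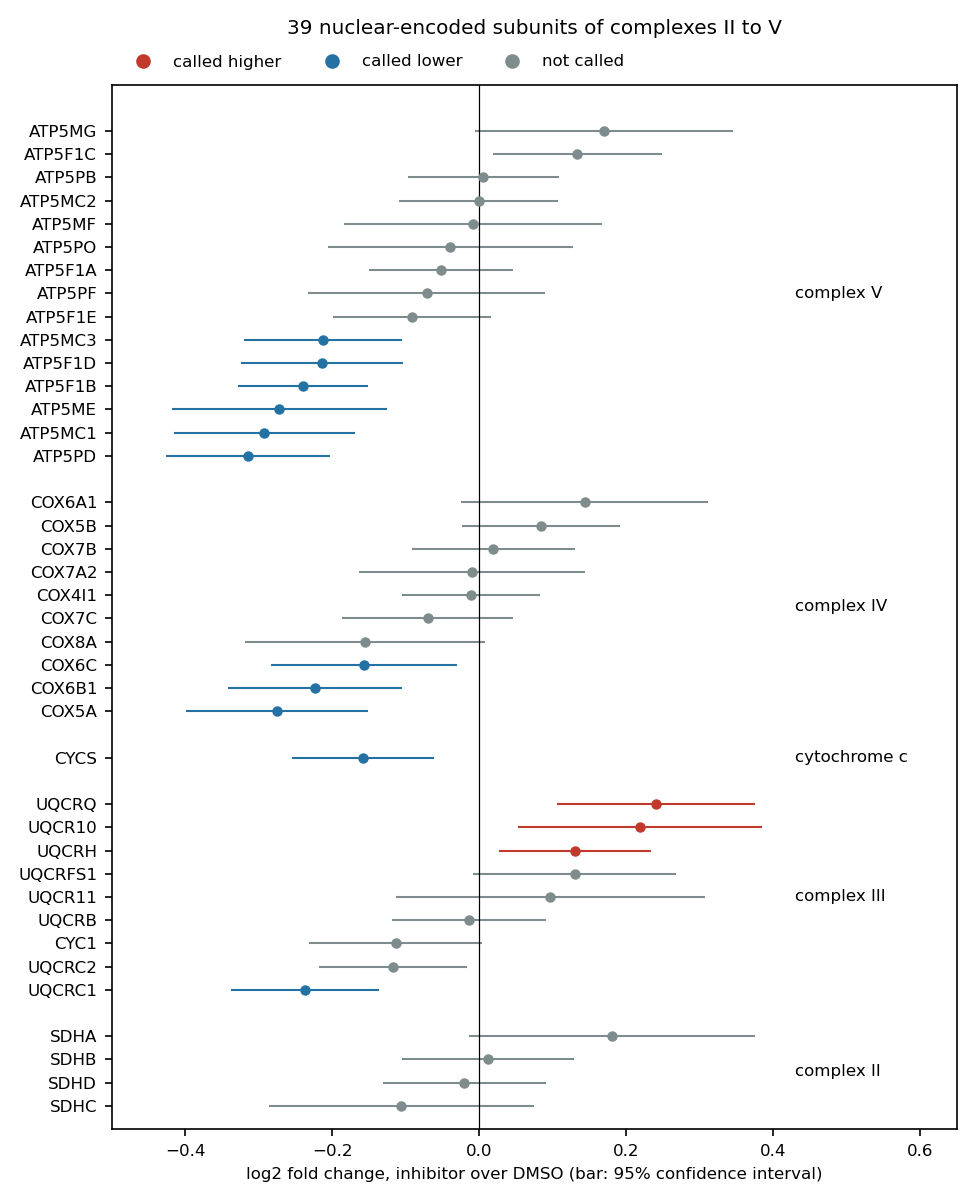
Log2 fold change (inhibitor over DMSO, horizontal axis) of the 39 subunit genes, grouped by complex, with 95% confidence intervals from edgeR's fit to 3 libraries per group. The 11 genes called lower (blue) lie in complexes III, IV and V and cytochrome c, the 3 called higher (red) lie in complex III, and the 4 genes of complex II all cross 0.

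Nuclear genes for respiratory subunits are known targets of the factors NRF1 and GABPA, the second a member of the ETS family, so their promoters were searched for both motifs. RefSeq windows from 250 bases before to 50 bases after the annotated start (GRCh38.p14) were at hand for 31 of the 39 genes. The NRF1 motif was searched as GCGCA and GCGC with any 1 base between them, and the ETS motif as CCGGAAG, each on both strands. An ETS match was found in 15 of the 31 genes, or 48.4%, beside 21.2% of the 11549 tested genes that have a window. An NRF1 match was found in 9, or 29.03%, beside 12.7% of the tested genes. Either match was present in 21 of 31 members, 67.7%, beside 30.9% of the tested genes. The general CCAAT box, searched as CCAAT on both strands, was matched in 41.9% of the members and in 42.3% of the tested genes. Its letters hold no CG pair, unlike the NRF1 and ETS letters, and the genes compared were not matched for base content. It therefore cannot serve as a control for the shares above. The NRF1 and ETS letters both occurred among members called lower, called higher and not called. ETS letters were matched in 3 of the 7 members called lower, 2 of the 3 called higher and 10 of the 21 not called that had a window, and NRF1 letters in 2, 1 and 6 of them. Stretches of 6 called members are shown. UQCR10, called higher, has an NRF1 match that runs across the start and is not among them. The ETS stretches come from genes called lower and genes called higher, while the NRF1 stretches shown come only from genes called lower. Each reads 5′ to 3′ on the gene's strand, with the match in capitals. Where a stretch falls inside the gene as GENCODE release 29 draws it, 30 bases are given, and otherwise 80. The window of ATP5ME holds another NRF1 match further upstream, outside the stretch shown.
UQCRC1 (called lower; NRF1 letters 47 to 38 bases before the start; chr3:48609674-48609703, minus strand): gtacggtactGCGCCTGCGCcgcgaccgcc
ATP5ME (called lower; NRF1 letters 174 to 165 bases before the start; chr4:674406-674485, minus strand): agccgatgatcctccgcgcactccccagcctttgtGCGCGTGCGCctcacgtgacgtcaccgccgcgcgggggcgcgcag
ATP5PD (called lower; ETS letters 101 to 95 bases before the start; chr17:75047028-75047107, minus strand): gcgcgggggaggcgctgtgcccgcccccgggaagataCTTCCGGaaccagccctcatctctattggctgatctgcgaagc
COX6B1 (called lower; ETS letters 12 to 6 bases before the start; chr19:35648293-35648322, plus strand): agtccccacctctctcagCTTCCGGctggt
UQCRH (called higher; ETS letters 46 to 40 bases before the start; chr1:46303640-46303669, plus strand): gagtgtgccgcaCTTCCGGccagatcgccg
UQCRQ (called higher; ETS letters 54 to 48 bases before the start; chr5:132866576-132866605, plus strand): aaatggtatctcCCGGAAGttacctcacga
In UQCRC1, ATP5ME, ATP5PD, COX6B1 and UQCRH the letters stand on the opposite strand, and in UQCRQ on the gene's own strand. A match is a description of letters and does not show that a factor binds there.

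No member of complex II was called, beside 37.1% of all genes tested. SDHB, the iron-sulfur subunit, was at 49.8 ± 3.05 CPM (SD, n = 3) under DMSO and 50.2 ± 2.16 CPM under the inhibitor. The membrane anchor SDHD was at 53.7 ± 2.34 and 53.0 ± 2.05 CPM. The groups overlapped in both genes, and the 95% confidence interval of the log2 fold change was -0.10 to 0.13 for SDHB and -0.13 to 0.09 for SDHD. SDHC, the other anchor, read 12.4, 12.9 and 11.7 CPM under DMSO and 11.6, 11.4 and 11.3 CPM under the inhibitor, all lower but by too little to be called (log2 fold change -0.11, SE 0.09, adjusted p = 0.372). SDHA, the flavoprotein that oxidises succinate, was at 13.0 ± 1.47 and 14.7 ± 1.42 CPM, with overlapping groups (0.18, SE 0.09, adjusted p = 0.14). Of the 4 genes, edgeR, DESeq2 and limma-voom each called 0, and 0 had an unadjusted p under 0.05 in any of them. SDHA has 4 named pseudogenes, 3 of them with counts, and these together read 88.6 ± 4.31 CPM under DMSO and 78.0 ± 1.18 CPM under the inhibitor, or 601% of the level of SDHA over all libraries. Among them SDHAP4 was lower (-0.43, SE 0.06, adjusted p = 9.76e-07) and SDHAP1 higher (0.21, SE 0.06, adjusted p = 0.00796), and since no source used here says how reads that fit several copies were assigned, the level of SDHA is uncertain.

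Complex III moved in both directions, with 3 of 9 genes (33.3%) called higher and 1 (11.1%) lower, beside 20% and 17.1% of all genes tested. Its 2 core proteins lie on the matrix side. UQCRC1 (ENSG00000010256, GRCh38 chr3:48599002-48610976, minus strand, GENCODE release 29) read 97.0, 96.5 and 101 CPM under DMSO and 78.9, 83.6 and 87.0 CPM under the inhibitor. Every inhibitor library lay below every DMSO library, and the gene was called lower (log2 fold change -0.24, SE 0.05, adjusted p = 0.000406). The second core protein, UQCRC2, read 74.2, 76.9 and 72.9 CPM under DMSO and 68.4, 70.6 and 67.3 CPM under the inhibitor. The groups did not overlap here either, but the change missed the threshold (-0.12, SE 0.05, adjusted p = 0.0606). It passed in 6 of 14 alternatives, among them RLE and upper-quartile scaling. Others were those without DMSO replicate 3 (adjusted p = 0.0442) or without inhibitor replicate 2 (0.0392).

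Of the 5 small subunits of complex III, which surround the catalytic subunits, 3 were higher. UQCRQ read 35.5, 31.04 and 33.6 CPM under DMSO and 36.0, 41.4 and 40.8 CPM under the inhibitor. The groups did not overlap, although DMSO replicate 1 and inhibitor replicate 1 were close (0.24, SE 0.06, adjusted p = 0.00493). Without DMSO replicate 2 the call was lost (0.19, adjusted p = 0.0629). UQCR10 read 22.7, 21.5 and 27.5 CPM under DMSO and 25.5, 29.2 and 28.8 CPM under the inhibitor. Here 1 DMSO library lay within the inhibitor range (0.22, SE 0.08, adjusted p = 0.0349). UQCRH, the hinge protein that helps cytochrome c dock, read 68.7, 65.0 and 67.5 CPM under DMSO and 70.0, 74.9 and 75.3 CPM under the inhibitor, without overlap (0.13, SE 0.05, adjusted p = 0.043). The last 2 calls were fragile. UQCR10 lost its call in 6 of 14 alternatives, among them those without DMSO replicate 1 (adjusted p = 0.155), DMSO replicate 2 (0.23), inhibitor replicate 2 (0.11) and inhibitor replicate 3 (0.114). UQCRH lost it in 11 of 14, among them those without DMSO replicate 1 (0.0727), 2 (0.226) or 3 (0.102) and without inhibitor replicate 2 (0.0927) or 3 (0.158). UQCRHL, an intronless copy of UQCRH, was called higher as well (0.55, SE 0.14, adjusted p = 0.00339), and the copies of UQCRH together read 3.81 CPM under DMSO and 5.54 CPM under the inhibitor, 6.65% of the level of UQCRH over all libraries.

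The other 2 small subunits did not pass. UQCRB was at 82.5 ± 4.94 and 81.7 ± 1.27 CPM, and UQCR11 at 10.2 ± 0.69 and 10.9 ± 1.26 CPM, both with overlapping groups. The 2 redox subunits, which carry electrons through the complex, did not pass either. CYC1, cytochrome c1, read 81.2, 82.3 and 82.8 CPM under DMSO and 69.6, 84.0 and 73.7 CPM under the inhibitor. Inhibitor replicate 2 stood apart from the other inhibitor libraries in this gene, and without it CYC1 was called lower (-0.20, adjusted p = 0.00315, against -0.11 and 0.123 with it). UQCRFS1, the Rieske iron-sulfur protein, was at 24.9 ± 1.42 CPM under DMSO and 27.2 ± 1.32 CPM under the inhibitor, without overlap and without a call (0.13, SE 0.07, adjusted p = 0.134).

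Ratios of small subunits to UQCRC1, taken inside each library, do not depend on the scaling between libraries. They cannot show which gene of a pair moved. The ratios were chosen after the values were seen and carry no test. The ratio of UQCRQ to UQCRC1 CPM was 0.366, 0.322 and 0.334 under DMSO and 0.457, 0.495 and 0.469 under the inhibitor. That of UQCRH to UQCRC1 was 0.708, 0.674 and 0.671 under DMSO and 0.888, 0.897 and 0.866 under the inhibitor. Both ratios were higher in every inhibitor library than in any DMSO library, which had to follow from the separate CPM groups of these genes.

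CYCS encodes cytochrome c, the small soluble protein that carries electrons from complex III to complex IV and that activates caspases when it leaves the mitochondrion. It read 135, 127 and 136 CPM under DMSO and 119, 123 and 115 CPM under the inhibitor. The groups did not overlap, and the gene was called lower (log2 fold change -0.16, SE 0.05, adjusted p = 0.00985). Without inhibitor replicate 3 the call was lost (-0.13, adjusted p = 0.0716). CYCS has 42 named copies in the genome, of which 9 had any count, and they held 0.432% of the CPM of CYCS itself.

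In complex IV 3 of 10 nuclear subunits, or 30%, were called lower and 0 higher, beside 17.1% lower and 20% higher over all genes tested. COX5A, a subunit that faces the matrix, read 52.5, 51.1 and 57.9 CPM under DMSO and 43.5, 47.7 and 42.2 CPM under the inhibitor. All inhibitor libraries were below all DMSO libraries (log2 fold change -0.27, SE 0.06, adjusted p = 0.000751). COX6B1, which faces the space between the membranes near the cytochrome c site, read 49.4, 46.5 and 49.1 CPM under DMSO and 38.4, 42.6 and 43.2 CPM under the inhibitor (-0.22, SE 0.06, adjusted p = 0.0032). These groups were separate too, and both calls held in all 14 alternatives other than the test against a fold of 1.2. COX6C, a small membrane subunit, fell from 31.1 ± 0.64 to 27.9 ± 1.15 CPM (-0.16, SE 0.06, adjusted p = 0.0463), a call at the edge of the threshold. It was lost in 9 of 14 alternatives, among them those without DMSO replicate 1 (adjusted p = 0.0749), 2 (0.136) or 3 (0.0523) and without inhibitor replicate 1 (0.13) or 3 (0.131). At an unadjusted p under 0.05, edgeR, DESeq2 and limma-voom each had 0 members of complex IV higher.

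The other 7 genes of complex IV were not called. COX4I1, an early partner of the mitochondrially encoded core, was at 138 ± 0.19 CPM under DMSO and 136 ± 5.73 CPM under the inhibitor. Its 95% confidence interval was -0.11 to 0.08 on the log2 scale. COX5B, which binds zinc, read 55.3, 51.8 and 54.8 CPM under DMSO and 55.6, 59.3 and 56.6 CPM under the inhibitor. The inhibitor libraries were all higher but the change was not called (0.08, adjusted p = 0.219). The ratio of COX5A to COX5B CPM was 0.950, 0.988 and 1.06 under DMSO and 0.782, 0.806 and 0.746 under the inhibitor, lower in every inhibitor library. This ratio was chosen after the values were seen, and its separation had to follow from the separate groups of COX5A and COX5B. COX7B was at 47.2 ± 1.66 and 47.8 ± 1.74 CPM, and COX7A2 at 23.6 ± 1.75 and 23.4 ± 1.85 CPM. COX7C (-0.07), COX8A (-0.16) and COX6A1 (0.14) had overlapping groups. Inhibitor replicate 1 held the lowest value of all libraries in COX8A, 25.4 CPM, and in COX7C, 138 CPM. Without inhibitor replicate 2, COX8A (adjusted p = 0.00953) and COX7C (0.049) were called lower, and without inhibitor replicate 1, COX6A1 was called higher (0.0146).

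In complex V 6 of 15 genes, or 40%, were called lower and 0 higher, beside 17.1% lower and 20% higher over all genes tested. Calls in either direction came to 37.1% of all genes tested, and to 48.2% of the genes in the members' range of levels. At an unadjusted p under 0.05 edgeR and limma-voom had 1 higher and DESeq2 had 0. All 6 calls held in the 14 alternatives other than the test against a fold of 1.2. The F1 part, which carries the catalytic sites, contributed 2 of its 5 genes. ATP5F1B (ENSG00000110955, GRCh38 chr12:56638175-56646068, minus strand, GENCODE release 29) encodes the catalytic beta subunit. It read 298, 301 and 312 CPM under DMSO and 256, 260.0 and 256 CPM under the inhibitor. The inhibitor libraries were close together and all below the DMSO libraries (log2 fold change -0.24, SE 0.04, adjusted p = 8.63e-05). ATP5F1D, the delta subunit of the central stalk, read 72.4, 73.9 and 81.8 CPM under DMSO and 63.8, 67.8 and 65.1 CPM under the inhibitor (-0.21, SE 0.05, adjusted p = 0.00257). The alpha subunit ATP5F1A, which alternates with beta in the head, was not called, at 101 ± 3.64 and 97.2 ± 2.83 CPM (-0.05, SE 0.05, adjusted p = 0.421). The ratio of beta to alpha CPM, also chosen after the values were seen, was 3.04, 3.02 and 2.98 under DMSO and 2.67, 2.59 and 2.69 under the inhibitor, lower in every inhibitor library. ATP5F1E (-0.09, adjusted p = 0.176) and ATP5F1C (0.13, adjusted p = 0.064), subunits of the central stalk, were not called. ATP5F1E was called lower without inhibitor replicate 2 (adjusted p = 0.0213), and ATP5F1C higher without inhibitor replicate 1 (0.0292).

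In the peripheral stalk, which keeps the head from turning with the rotor, 1 of 4 genes was called. ATP5PD (ENSG00000167863, chr17:75038863-75046985, minus strand), subunit d, read 89.4, 90.3 and 89.7 CPM under DMSO and 66.0, 72.6 and 78.0 CPM under the inhibitor. The DMSO libraries were nearly equal, the inhibitor libraries were more widely spread, and all of these were lower (-0.31, SE 0.05, adjusted p = 5.32e-05). ATP5PB was at 71.2 ± 2.35 and 71.5 ± 2.49 CPM, ATP5PO at 16.4 ± 1.06 and 15.9 ± 1.03 CPM, and ATP5PF at 25.6 ± 2.41 and 24.4 ± 2.3 CPM. In these 3 genes the groups overlapped and no call was made.

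Subunit c forms the ring that turns in the membrane, and 3 genes encode the same mature protein with different import signals. ATP5MC1 read 47.2, 46.9 and 49.6 CPM under DMSO and 35.6, 41.3 and 40.5 CPM under the inhibitor (-0.29, SE 0.06, adjusted p = 0.000387). ATP5MC3 read 48.4, 47.9 and 48.4 CPM under DMSO and 40.9, 42.1 and 42.0 CPM under the inhibitor (-0.21, SE 0.05, adjusted p = 0.00227). Both were lower in every inhibitor library. ATP5MC2, at 104.5 ± 6.82 and 104.5 ± 4.98 CPM, was not called, with an interval of -0.11 to 0.11. The 3 genes together gave 194, 198 and 209.8 CPM under DMSO and 175, 191 and 189 CPM under the inhibitor, so the summed message for subunit c was lower in all inhibitor libraries as well, without a test.

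Among the 3 small membrane subunits, ATP5ME, subunit e, which helps pairs of ATP synthases associate, read 22.1, 22.5 and 21.6 CPM under DMSO and 17.8, 17.8 and 19.3 CPM under the inhibitor. The groups were separate (-0.27, SE 0.07, adjusted p = 0.0036). ATP5MF was at 19.2 ± 1.35 and 19.0 ± 2.27 CPM. ATP5MG, subunit g, was at 21.3 ± 1.68 and 24.04 ± 3.28 CPM, uncalled with all libraries (0.17, adjusted p = 0.122) and called higher without inhibitor replicate 1 (0.28, adjusted p = 0.00724).

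**Figure D2:**
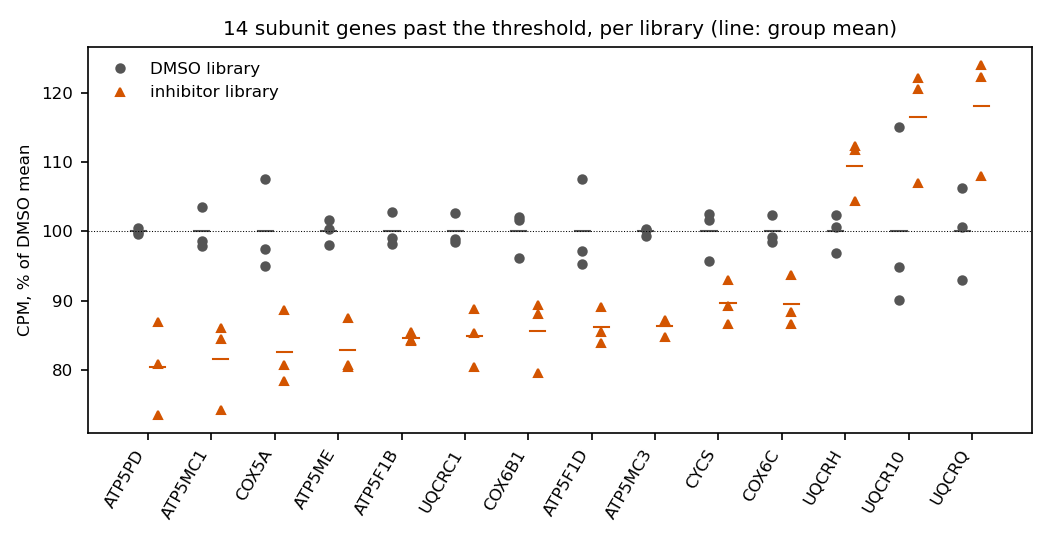
CPM of the 14 called genes in each library (vertical axis, percent of the gene's DMSO mean), with DMSO libraries as circles, inhibitor libraries as triangles and group means as lines (n = 3 each). The groups are separate in all of these genes except UQCR10, where 1 DMSO library lies among the inhibitor libraries.

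Summed over its genes, complex V gave 1067, 1074 and 1119 CPM under DMSO and 949, 1016 and 1002 CPM under the inhibitor, a decrease of 8.96% of the mean. Complex IV summed to 620.1 ± 9.63 CPM under DMSO and 595 ± 37.2 CPM under the inhibitor, and complex III to 497 ± 7.49 and 488 ± 21.0 CPM, both with overlapping groups. Complex II summed to 129 ± 4.92 and 129 ± 4.21 CPM. Only in complex V and in cytochrome c were all 3 inhibitor sums below all 3 DMSO sums, and the difference between complexes was not tested. Abundant genes weigh most in these sums. Inhibitor replicate 1 gave the lowest sum of all 39 genes, 2212 CPM, against 2407 and 2343 CPM in the other inhibitor libraries and 2435 to 2520 CPM under DMSO.

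**Figure D3:**
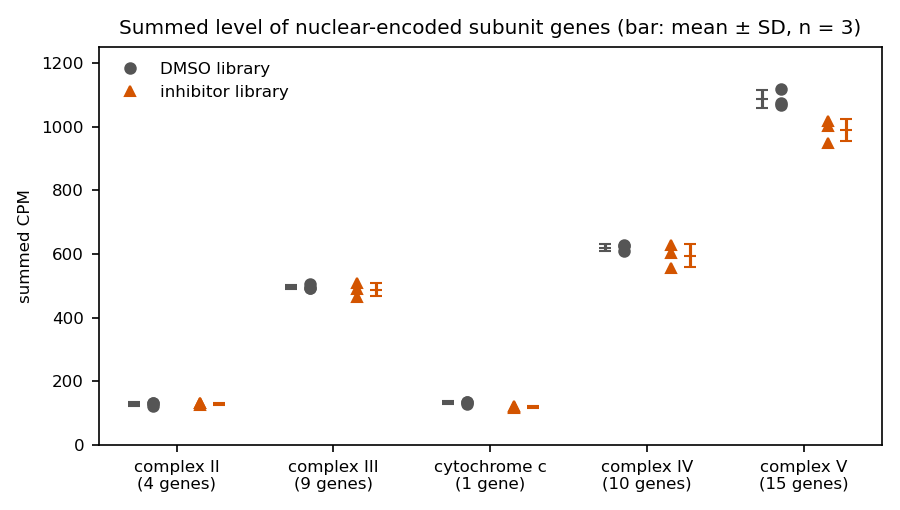
Summed CPM (vertical axis, starting at 0) of the nuclear-encoded genes of each complex, by library, with the mean and SD of each group beside the points (n = 3). The inhibitor libraries lie below the DMSO libraries in complex V and cytochrome c, while in complexes III and IV 2 of the 3 lie below every DMSO library and 1 above, and in complex II the groups overlap.

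Levels differed widely among the members. Per kilobase of the principal transcript in GENCODE release 29, COX4I1 was the most abundant under DMSO, at 194 ± 0.26 CPM per kb, followed by ATP5F1B at 165 ± 4.12, ATP5PD at 149 ± 0.71 and UQCRH at 111 ± 3.14 CPM per kb. SDHC was the lowest, at 0.907 ± 0.04 CPM per kb, on a transcript drawn with 13566 bases. Transcript lengths ran from 305 to 13566 bases, with a median of 1240, and since the transcripts these cells use were not measured, the order is approximate. Across the 39 genes Pearson's r between the log2 fold change and the log2 of the DMSO level in CPM was -0.39, and with the log2 of transcript length 0.0007. Genes are not independent replicates, all points share the same 6 libraries, and the log2 fold change and the level share the DMSO libraries.

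The mitochondrially encoded partners of complexes III, IV and V were lower in the mean under the inhibitor. MT-CO3, the third core subunit of complex IV, read 11440.7, 12208 and 10595 CPM under DMSO and 8902, 9009 and 10084 CPM under the inhibitor. These groups were separate (log2 fold change -0.29, SE 0.06, adjusted p = 0.000466). MT-CO1, the catalytic subunit, was called lower although its groups overlapped (-0.25, SE 0.07, adjusted p = 0.0065), and so was MT-ATP8, a small membrane subunit of complex V (-0.18, SE 0.06, adjusted p = 0.0194). MT-CO2 (-0.17, adjusted p = 0.0591), MT-ATP6 (-0.15, adjusted p = 0.0721) and MT-CYB (-0.10, adjusted p = 0.241) were not called. In all, 3 of 6 were lower by edgeR, or 50% beside 17.1% of all genes tested, with a median of -0.18. The groups were separate in only 1 of the 6, or 16.7% beside 47% of all genes tested. For higher calls edgeR, DESeq2 and limma-voom each had 0, also at an unadjusted p under 0.05, and for lower calls DESeq2 had 1 and limma-voom 5. This count depended on single libraries, with 1 to 6 lower when 1 library was left out. MT-CO1 lost its call without DMSO replicate 2 (adjusted p = 0.0687), and MT-ATP8 without DMSO replicate 2 (0.194) or inhibitor replicate 2 (0.113). MT-CO2 and MT-ATP6 gained one without DMSO replicate 3 (0.00466 and 0.00579) or inhibitor replicate 3 (0.00549 and 0.00839), and MT-CYB without inhibitor replicate 3 (0.0182). All mitochondrially encoded genes together took 17.8% to 20.6% of the counts under DMSO and 16.8% to 18.9% under the inhibitor. With these genes left out of scaling and test, an alternative added after seeing the data, 2 of the 39 nuclear members were higher and 12 lower.

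Nuclear subunits of complex I, the first of the chain, were called about as often as the members, with 3 of 37 higher and 10 lower and a median of -0.08. By direction 8.11% were higher and 27% lower, beside 20% and 17.1% of all genes tested and 7.69% and 28.2% of the members. The share of complex I subunits called either way was 35.1%, beside 37.1% of all genes tested. Their range was wider, since NDUFA10 (log2 fold change 0.64, SE 0.05) and NDUFV1, which binds NADH (0.39, SE 0.05), rose by more than any member changed, and NDUFA11 (-0.43, SE 0.09) and NDUFA1 (-0.29, SE 0.06) fell. The list's counts were 5 higher and 5 lower without inhibitor replicate 1, and 6 were lower without inhibitor replicate 3. Among 12 alternative or later named subunits of complexes IV and V, 7 could be tested. Of these, 3 (42.9%) were lower by edgeR (5 without inhibitor replicate 2), beside 17.1% of all genes tested. For higher calls edgeR, DESeq2 and limma-voom each had 0, also at an unadjusted p under 0.05. The lower ones were NDUFA4, which is part of complex IV despite its name (-0.18, SE 0.05), COX7A2L, which joins complexes III and IV into supercomplexes (-0.20, SE 0.05), and DMAC2L, known as factor B of the ATP synthase (-0.51, SE 0.09). COX4I2, COX6A2, COX7A1, COX7B2 and COX8C, forms of other tissues or conditions, did not pass the filter on low counts. COX6B2, of the same list, did pass, at 11.1 ± 1.07 CPM under DMSO and 10.2 ± 0.15 CPM under the inhibitor, and was not called (-0.11, adjusted p = 0.391).

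Of 43 assembly factors 5 were higher and 13 lower, or 41.9% called beside 37.1% of all genes tested, with a median of -0.05. By direction 11.6% were higher and 30.2% lower, beside 20% and 17.1% of all genes. The 4 factors with the smallest p changed more than any of the 39 subunit genes. Only 3 factors were higher without DMSO replicate 2, DMSO replicate 3 or inhibitor replicate 3. LRPPRC, which stabilises mitochondrial mRNAs and is needed for complex IV, rose from 224 ± 3.27 CPM to 299.6 ± 9.67 CPM (0.42 on the log2 scale, SE 0.04, adjusted p = 4.41e-08). COA5, an assembly factor of complex IV, fell from 27.7 ± 0.21 to 20.7 ± 0.85 CPM (-0.42, SE 0.07, adjusted p = 1.39e-05). Among the 9 factors of complex III 77.8% were called, with 6 lower and 1 higher and a median of -0.25. That 1 was BCS1L, which inserts the Rieske protein at the end of assembly and rose from 36.8 ± 1.05 to 47.1 ± 3.54 CPM (0.36, SE 0.06, adjusted p = 3.74e-05). LYRM7, a chaperone of the same Rieske protein before its insertion, fell from 38.3 ± 1.57 to 29.1 ± 0.35 CPM (-0.40, SE 0.06, adjusted p = 7.45e-06). Complex II had 1 of 4 factors lower, complex IV 3 of 25 higher and 5 lower, and complex V 1 of 4 higher and 1 lower.

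Enzymes of the citric acid cycle, which feed the chain, had 3 of 13 members higher and 1 lower, or 30.8% called beside 37.1% of all genes tested. IDH3B, a subunit of isocitrate dehydrogenase, rose from 59.2 ± 1.03 CPM to 87.7 ± 3.02 CPM (0.57 on the log2 scale, SE 0.05, adjusted p = 1.67e-09). DLST (0.31, SE 0.04) and OGDH (0.20, SE 0.04), subunits of the oxoglutarate dehydrogenase complex, rose, and SUCLG2, a subunit of succinyl-CoA ligase, fell (-0.33, SE 0.08). Succinate dehydrogenase, complex II, belongs to the same cycle and had 0 called, as given above. Among 13 regulators of nuclear or mitochondrial respiratory genes 1 was higher and 3 were lower, also 30.8% called. GABPB2, a partner of the ETS factor GABPA, fell from 18.1 ± 1.61 to 11.6 ± 0.71 CPM (-0.63, SE 0.09, adjusted p = 2.6e-06). TFB1M, which methylates mitochondrial ribosomal RNA (-0.66, SE 0.12), and TFAM, which packages and transcribes mitochondrial DNA (-0.25, SE 0.05), fell, and the coactivator PPARGC1B rose (0.53, SE 0.08). The medians of the last 2 lists, 0.02 each, turned negative with upper-quartile scaling, to -0.04 for both. With that scaling the median over all genes moved as well, from 0.001 to -0.06.

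**Figure D4:**
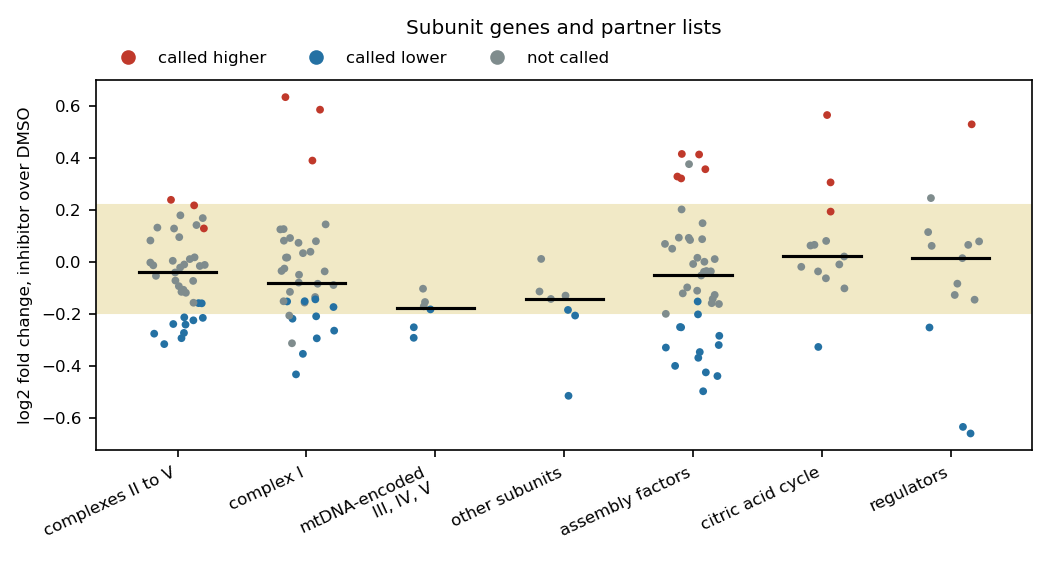
Log2 fold change (inhibitor over DMSO, vertical axis) of each tested gene in the 39 subunit genes and 6 partner lists, with list medians as black lines and the range between the quartiles of all 17371 genes tested as a shaded band (-0.20 to 0.22). The 39 subunit genes stay between -0.31 and 0.24, while complex I subunits, assembly factors, citric acid cycle genes and regulators reach further in both directions.

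Copies of these genes took few reads outside complex II. Of 175 named copies of 31 members, 60 had any count. The copies held more than 5% of the member's own CPM in 3 members, which were SDHA, UQCRH and COX6A1, the last with copies at 6.21% of its level. Leaving out the copies of SDHA, all copies together read 9.63 ± 0.23 CPM under DMSO and 12.1 ± 0.62 CPM under the inhibitor.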

How the data were processed

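Polyadenylated RNA of HuCCT-1 cells was sequenced from 6 libraries made with a stranded Illumina mRNA kit, per the labels' protocols. The values deposited by the authors are raw counts of reads per gene, not normalized, in 1 table. The tools listed, per the submitters' processing notes, are STAR 2.7.9a, FastQC 0.11.8, limma, edgeR and featureCounts 1.6.0, without roles. Those notes name the mouse build GRCm39, whereas every row has a human Ensembl identifier, which leaves the build used for counting uncertain. The sources used here do not give how strand and multi-mapping reads were handled, so counts of antisense, overlapping or copied genes are uncertain.

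Of 60649 rows, 44 repeated an identifier with 0 counts and were dropped. Symbols were matched for 60463 of 60605 genes. Genes kept by filterByExpr (minimum count 10, minimum total 15) numbered 17371. They were scaled by TMM and compared with edgeR 4.0.16 (glmQLFit and glmQLFTest, group only), with Benjamini-Hochberg adjustment over all of them at 0.05. Every adjusted p given is from this fit unless an alternative is named. Intervals are at 95%. Replicate pairs differed beyond counting error (chi-square over its degrees of freedom was 2.67 to 8.96), so each library counted as 1 sample. Genes were named by rule: all members, all mitochondrially encoded partners, and up to 4 called genes of smallest p per further list. Some markers, copies and uncalled alternative subunits were named besides. Copies are genes whose symbol is that of a member followed by a pseudogene or retrocopy suffix.

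The members, lists and tests were chosen with earlier results of these data known. Alternatives were DESeq2 1.42.0, limma-voom (limma 3.58.1), RLE and upper-quartile scaling, no filter, a filter on CPM (over 1 in 3 or more libraries), a test against a fold of 1.2, the replicate number as a block, and leaving out each library. Scripts ran in R 4.3.3 and Python 3.11.15. The edgeR, DESeq2 and limma-voom fits were tried on simulated data. The changes planted there were larger than that of any member, so changes as small as the members' were not covered.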

Additional observations from a re-analysis of the deposited data

How the results depend on the processing

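No called member, and no called gene named from the partner lists, changed sign in any alternative run, while the pseudogenes and some of the markers were not followed through the alternatives. The median over the 39 members was -0.04 and ran from -0.08 to 0.0007 when single libraries were left out. With upper-quartile scaling the median over all genes moved to -0.06, 40.6% instead of 53.9% of all called genes were higher (2800 higher and 4099 lower, against 3478 and 2970), and the members' median was -0.10. There 1 member was higher, in complex III, which had 3 lower, and the lower calls came to 5 among other subunits, 5 among mitochondrially encoded partners, 16 in complex I and 6 among regulators, while 3 assembly factors were higher. Complex III had 2 lower with RLE scaling, with the CPM filter and without mitochondrially encoded genes, the last chosen after seeing the data. Without a filter on low counts, 6 mitochondrially encoded partners were lower. DESeq2 called 1 member higher, in complex III, 3 assembly factors higher and 1 mitochondrially encoded partner lower, and limma-voom called 5 of these partners lower.

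Against a fold of 1.2, which asks for a larger change by construction, 1413 genes were higher and 852 lower over all genes. There 0 members were called either way, so 0 in complexes III, IV and V and cytochrome c, and 0 mitochondrially encoded partners, 0 complex I subunits and 0 citric acid cycle genes were lower. The same test left 1 of the other subunits lower, 1 assembly factor higher and 2 lower, and 1 citric acid cycle gene higher. For the other settings the cause was not tested.

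Leaving out single libraries gave 2879 to 3345 genes higher and 2425 to 2752 lower over all genes. For the members the ranges were 0 to 6 higher and 9 to 16 lower. They were 0 to 3 higher and 1 to 3 lower in complex III, 0 to 1 lower for cytochrome c, 0 to 1 higher and 2 to 5 lower in complex IV, and 0 to 2 higher and 6 to 7 lower in complex V. Other subunits had 3 to 5 lower, assembly factors 3 to 5 higher and 9 to 12 lower, mitochondrially encoded partners 1 to 6 lower, complex I 2 to 5 higher and 5 to 11 lower, and regulators 3 to 4 lower.

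The labels state no pairing of the libraries. Same-numbered libraries deviated from their group means with correlations of -0.02, -0.01 and 0.002, and differently numbered ones with -0.03 to 0.05. Such values cannot show whether same-numbered libraries were handled together. With the replicate block, 2 members were higher and 10 lower. Depth limits the members little, since each had at least 236 counts in every library.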
